A study of Mus musculus with 47 samples.

Results

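The genes described here are 29 genes of the red cell membrane and of erythroid maturation, listed by name, in a list and an early and late order drawn up with earlier results of these data known, with the carbonic anhydrase Car1 and the anion exchanger Slc4a1 given as markers of the list. For each gene the value came from the probe set that the platform annotation assigns to that gene alone and, where there were several, from the probe set whose mean level across the 47 arrays was highest. This found 26 of the 29 genes, among 18193 genes with such a probe set. No value was used for Epb41, Trim58 and Ahsp, which no single-gene probe set named. All 26 passed the filter on low values (above log2 5 in at least 9 arrays), which 18178 of the 18193 genes passed.

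A red cell keeps its shape because a spectrin network under the membrane is tied to membrane proteins, chiefly to the anion exchanger band 3 (Slc4a1) through ankyrin and protein 4.2, and to glycophorin C through protein 4.1. The same membrane carries blood group proteins such as the Rh, Kell and Landsteiner-Wiener proteins, and the cytoplasm is rich in carbonic anhydrase. Erythroid genes are switched on in sequence: Car1, Car2, Kel, Rhag, Gypc and Icam4 are known from progenitors and proerythroblasts on, and are called early members here. Slc4a1, Epb42, Tspo2, Trim10, Tmcc2, Bpgm, Mkrn1, Fhdc1 and Tmod1 are known to increase as erythroblasts fill with haemoglobin, and are called late members. The mouse spleen makes red cells in adult life and expands that output under stress.

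RNA came from 47 leukaemic spleens, 1 from each of 47 mice, taken at the terminal stage of a leukaemia diagnosed as myeloid and undifferentiated. Every mouse carried Tg(ACTB-cre)2Mrt, a Cre recombinase under the beta-actin promoter, which is active in nearly all tissues, and Gt(ROSA)26Sortm2(sb11)Njen, the Cre-dependent Sleeping Beauty transposase. The mobilised transposon was TgTn(sb-T2/Onc2)6070Njen in 26 mice and TgTn(sb-T2/Onc2)6113Njen in 21 mice. A transposon insertion in Erg, the gene of an ETS transcription factor, was recorded for 26 tumours and not for 21; ages at necropsy ran from 32 to 97 in a unit the labels do not give. No spleen of a healthy mouse was analysed here, so every comparison is among leukaemic spleens. Male and female labels matched the sex-chromosome transcripts on 23 arrays and did not on 24. The pairing of arrays and labels is therefore in doubt for every comparison by label, and arrays are named by their labels only ("the array labelled Female 3"). Comparisons of genes with one another on the same arrays do not use the labels.

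All values are log2 levels after robust multi-array averaging (RMA), which subtracts background and gives all arrays one distribution. Array medians lay between 5.19 and 5.24, close to the lower end of the scale at 4.78, so values near 5 are a floor and differences there are compressed. Levels of different probe sets are not compared with each other. In bulk tissue, fewer cells of a type and less RNA per cell cannot be told apart. Erythroid markers were present in nearly every spleen: Car1 and Slc4a1 each lay above log2 7 on 45 of 47 arrays. Genes of other cell types were present too. Vpreb1, part of the pre-B cell receptor, lay above log2 7 on 15 arrays and Cd3d, part of the T cell receptor complex, on 9. Since these arrays stood apart from the rest, correlations are given for all arrays and inside 2 sets chosen after the values were seen: 25 arrays with Vpreb1 and Cd3d both at or below log2 7 (lymphoid-low), and 22 with either above it (lymphoid-high).

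Most of these red cell genes ranged more widely than most tested genes. A range over 3 log2 units between the lowest and the highest array was found for 11 of the 26 members, where 2.0% of the 18178 tested genes had such a range, and the median range was 2.75 for members and 0.49 for all tested genes. A level above log2 7 in at least 1 array was reached by 24 of 26 members, against 23.1% of tested genes. Most tested genes thus stayed at low levels, where differences are compressed, and members were not compared with genes of like level. Hemgn and Car2 were above 7 on every array, and Sptb and Xk on none.

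The probe sets of skeleton and anchor genes differed widely in how far their values moved. Slc4a1, the band 3 exchanger of chloride and bicarbonate, ran from 5.81 through a median of 9.17 to 11.22, a 42.7-fold range. Epb42, protein 4.2 beside band 3, ran from 5.12 to 7.99 around a median of 6.39. Ank1, the ankyrin that ties band 3 to spectrin, ran from 5.65 to 8.34 with a median of 7.24. Those 3 genes of the band 3 complex thus all had arrays at or near the floor. Gypc, the glycophorin C anchor, ran from 6.11 to 8.70 (median 7.27). The actin-end genes had narrower ranges. Tmod1, the tropomodulin that caps actin filaments, spanned 5.86 to 8.00, and Dmtn, the actin-bundling dematin, 5.66 to 7.71. Add2, the adducin that joins spectrin to actin, spanned 5.33 to 7.02. Their medians were low (6.5, 6.4 and 6.0), and near the floor differences are compressed, so a narrow range need not mean steadier RNA. Sptb, beta-spectrin, stayed between 5.28 and 6.19, so its probe set gave little room to follow it.

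Surface proteins held some of the widest ranges. Ermap, the butyrophilin-like Scianna blood group protein, ran from 5.59 to 9.86 with a median of 9.24, a 19.3-fold range. Rhd, the Rh protein, ran from 5.36 to 9.05 (median 7.47), and its partner Rhag, the Rh-associated glycoprotein, from 5.56 to 8.75 (median 7.79). Cldn13, a claudin of rodent erythroid cells, ran from 5.45 to 9.07 (median 8.00). Aqp1, the water channel, ran from 6.03 to 9.68 (median 8.54), and Tspan33, an erythroid tetraspanin, from 6.09 to 8.88 (median 7.73). Icam4, the Landsteiner-Wiener adhesion protein, ran from 5.28 to 7.65 (median 6.84). Kel, the Kell endopeptidase, ran from 5.23 to 7.94 (median 6.46), while Xk, the protein that Kell is bound to, spanned 5.12 to 5.61 and hardly left the floor.

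Among the enzymes, Car1 ran from 6.20 through 10.31 to 11.57, a 41.4-fold range, and Car2 from 7.64 through 11.31 to 11.95, a 19.9-fold range. Car2 had most arrays near the top and a tail of low arrays, with its lower quartile at 10.60. Car1 was more spread, with its lower quartile at 8.58. Bpgm, which makes the bisphosphoglycerate that lowers the oxygen affinity of haemoglobin, ran from 5.96 to 8.55 (median 7.17). Among the maturation genes, Tmcc2, a transmembrane coiled-coil protein, had an 18.9-fold range from 5.36 to 9.59 (median 7.73). Hemgn, hemogen, a nuclear protein of blood progenitors and erythroblasts, ran from 7.07 to 10.68 (median 9.43), Trim10, a RING finger protein of terminal erythroid cells, from 5.53 to 8.91 (median 7.27), and the ubiquitin ligase Mkrn1 from 6.89 to 9.58 (median 8.62). Tspo2, an erythroid translocator protein, spanned 5.45 to 7.67, and the formin-family gene Fhdc1 5.32 to 7.07.

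**Figure D1:**
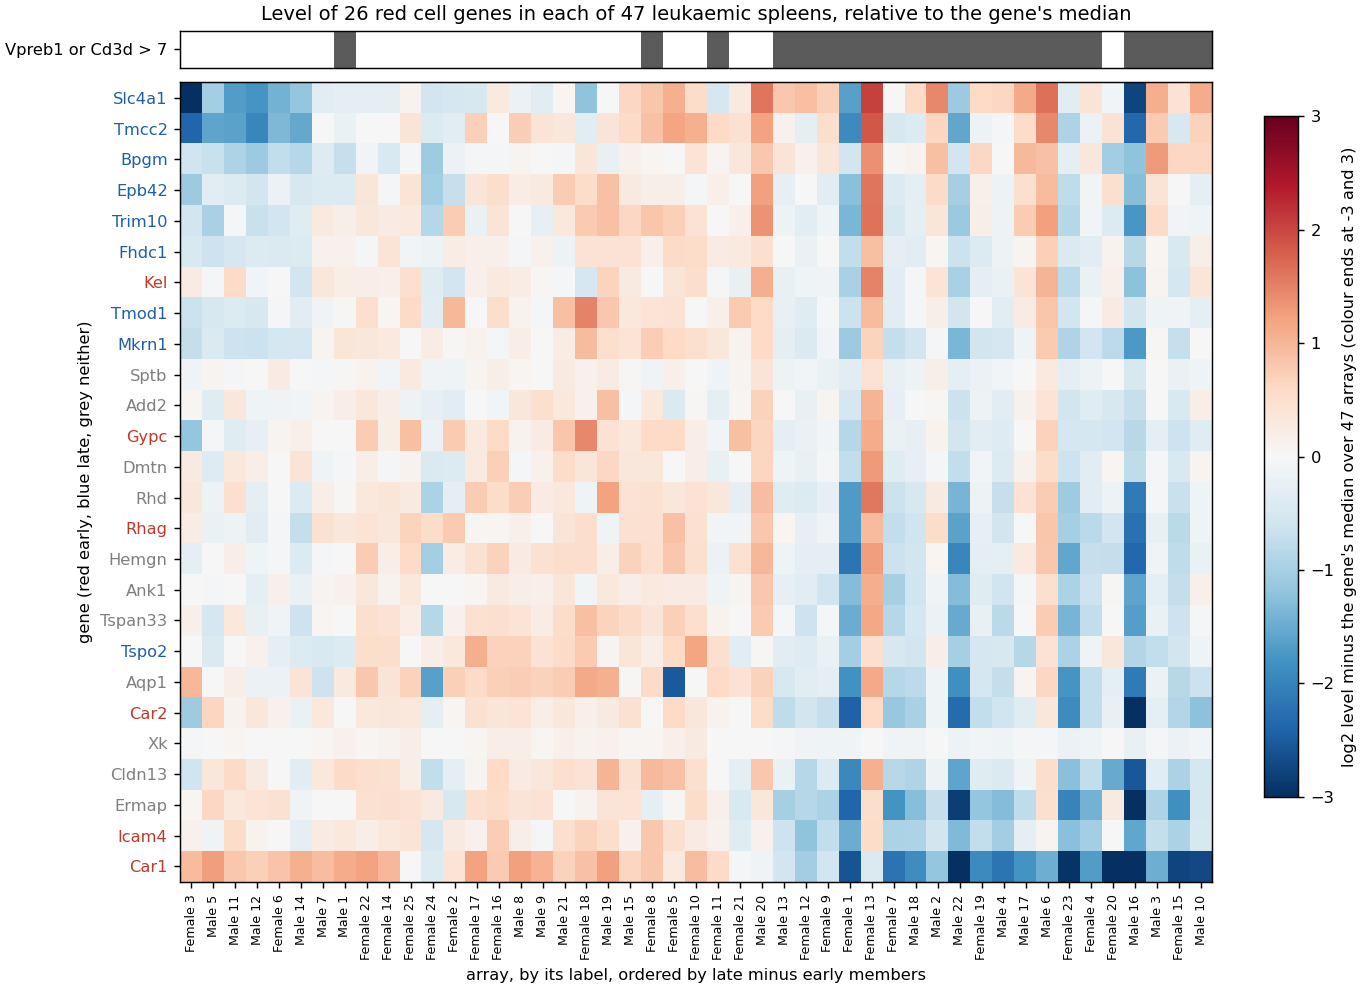
Each row is a gene and each column an array; colour is the log2 level minus that gene's median over 47 arrays, and the bar above marks the 22 arrays with Vpreb1 or Cd3d above log2 7. Car1 is low on most of the marked arrays, while Slc4a1 and Tmcc2 are low on a group of unmarked arrays at the left.

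The extremes were shared. The array labelled Male 16 was the lowest of all for 20 of 26 members, and the array labelled Female 13 the highest for 16. On Male 16 the levels were 6.42 for Slc4a1, 6.20 for Car1, 5.59 for Ermap and 5.36 for Rhd, each close to the floor or far below its median. The other two low arrays, Female 1 and Male 22, had Rhd at 5.78 and 6.08 and Car1 at 7.72 and 7.30. The erythroid transcription factors were low on these same arrays: Klf1 stood at 5.62, 6.43 and 6.39 on Male 16, Female 1 and Male 22, against a median of 9.14. Lymphoid genes were high there, with Vpreb1 at 9.74 on Male 16 and 10.13 on Female 1, and Cd3d at 10.09 on Male 22. Female 13 had Slc4a1 at 11.22, Rhd at 9.05 and Klf1 at 9.99, and also Vpreb1 at 9.34, so a high Vpreb1 level did not always go with low red cell genes.

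The marker of the early stage and that of the late stage did not rise and fall together. Across all 47 arrays, Slc4a1 and Car1 had r = -0.14 and rho = -0.32, the lowest r among the 325 pairs of members. In the lymphoid-low arrays Car1 stayed high, with a median of 11.16 and a range of 6.49 to 11.57, and only the array labelled Female 20 was below 9. Slc4a1 ran from 5.81 to 10.78 on those arrays, with a median of 8.89. In the lymphoid-high arrays Car1 was spread from 6.20 to 11.42 around a median of 8.58, and Slc4a1 from 6.42 to 11.22 around 9.78. The correlation was -0.22 in the lymphoid-low set and 0.42 in the lymphoid-high set, and the latter fell to 0.21 without Male 16. Without Female 20 the lymphoid-low value was -0.36. Over all arrays r was -0.28 without the 2 arrays most extreme in Slc4a1 and -0.33 without the 2 most extreme in Car1. Permutation of the arrays gave p = 0.357 for r and p = 0.0308 for rho over all arrays, with no adjustment. Both genes belong to a list drawn up with earlier results of these data known, so these p are a description only.

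**Figure D2:**
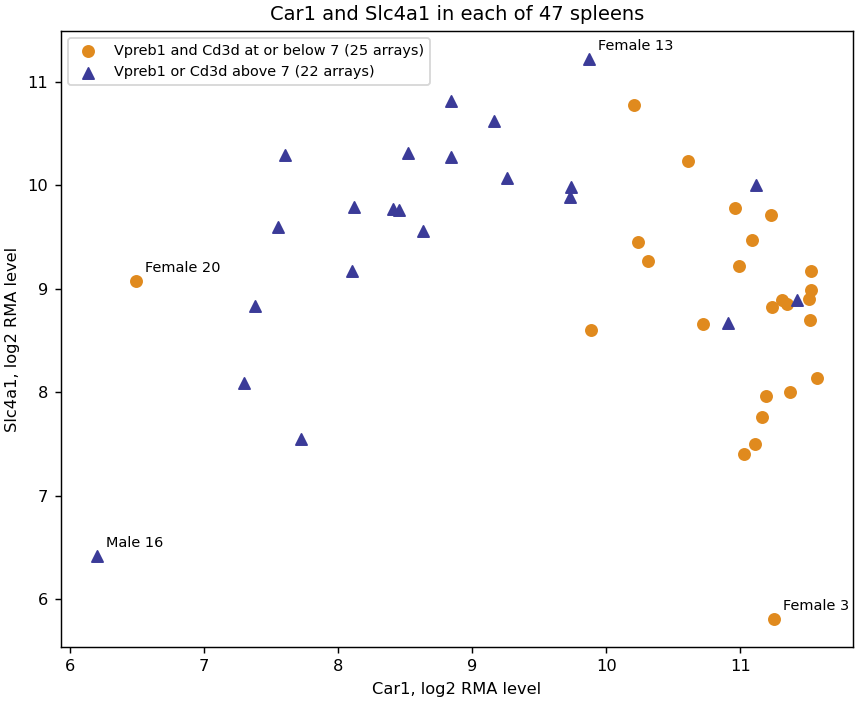
Each point is an array, with its Car1 level on the horizontal and its Slc4a1 level on the vertical axis (log2 RMA); circles are the 25 arrays with Vpreb1 and Cd3d at or below log2 7 and triangles the other 22. Circles other than Female 20 gather at high Car1, with Slc4a1 between 5.81 and 10.78, and triangles run from Male 16, low in both, towards Female 13.

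Following Slc4a1, 11 of the other 25 members were called higher where Slc4a1 was higher and 0 lower (limma, Benjamini-Hochberg adjusted p under 0.05 over all genes), where 2.21% of all genes were called higher and 6.01% lower. A slope here is the log2 change of a gene for each log2 unit of the marker. Tmcc2 had the steepest slope, 0.78 (SE 0.07, adjusted p = 2.37e-11), followed by Bpgm at 0.45 (SE 0.05, adjusted p = 1.65e-08). Trim10 rose by 0.42 (SE 0.07, adjusted p = 5.60e-05) and Epb42 by 0.38 (SE 0.06, adjusted p = 4.11e-05). Fhdc1, Mkrn1 and Tmod1 had slopes of 0.22, 0.27 and 0.19, so 7 of 8 late members were called, all but Tspo2 (0.08, SE 0.07, adjusted p = 0.592). Of the 6 early members Kel (0.25) and Rhag (0.27) were called, and Icam4 had 0.03 (SE 0.08, adjusted p = 0.866). Hemgn (0.34) and Rhd (0.27) were the other 2 called. By role, 5 of 6 maturation genes, 2 of 7 skeleton genes and 3 of 9 surface genes were called. Without Male 16 the count fell to 7, and Hemgn, Rhag, Rhd and Tmod1 were no longer called, while over all genes the calls went from 401 to 663 higher and from 1093 to 1642 lower. Without Female 3 or without Female 18 the members' count was 14. Without Female 13 it was 8, with 260 of all genes higher and 774 lower. In line 6070 alone 4 members were called (1.58% of all genes higher, 1.42% lower) and in line 6113 alone 5 (0.452% higher, 0.636% lower). The slope differed between the lines for 0 members and 0 of all genes (0.0%), with 1 member and 1785 genes at an unadjusted p under 0.05.

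The 5 highest correlations with Slc4a1 were those of late members. Over the 47 arrays r with Slc4a1 was 0.86 for Tmcc2 (rho 0.75), 0.80 for Bpgm (rho 0.83), 0.68 for Epb42 (rho 0.60), 0.68 for Trim10 (rho 0.59) and 0.62 for Fhdc1 (rho 0.50). For these 5 the permutation p of r was 1e-05, the smallest that 100000 resamples can give. They are the highest correlations among members chosen with earlier results of these data known, so this p is a description only. Leaving out the 2 arrays whose Slc4a1 level lay farthest from its median, r was 0.82 for Tmcc2, 0.82 for Bpgm, 0.61 for Epb42 and 0.64 for Trim10, while that of Gypc fell from 0.39 to 0.21 and that of Car2 from 0.35 to 0.12. The marker correlations are 50 tests in 1 family; the adjusted p-values given with the slopes are over all genes.

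Following Car1, 20 of the other 25 members were called higher and 0 lower, where 18.9% of all genes were called higher and 13.6% lower, so many genes outside the list also moved with Car1. All 9 surface genes were called. Cldn13 rose by 0.41 for each log2 unit of Car1 (SE 0.05, adjusted p = 3.17e-09), Ermap by 0.51 (SE 0.06, adjusted p = 4.48e-09) and Icam4 by 0.32 (SE 0.04, adjusted p = 8.93e-09). Car2, the other carbonic anhydrase, rose by 0.44 (SE 0.05, adjusted p = 2.51e-08). All 5 other early members were called, and 4 of 9 late members: Mkrn1 (0.23), Tspo2 (0.21), Trim10 (0.16) and Fhdc1 (0.09). Those not called were Slc4a1 (-0.10, SE 0.10), Bpgm (-0.05, SE 0.06), Tmcc2 (0.09, SE 0.09), Epb42 (0.09, SE 0.06) and Tmod1 (0.11, SE 0.04, adjusted p = 0.0589). The count ran from 17 to 21 when each array was left out in turn. Among only the 6303 genes above log2 6 in 9 arrays, 19 of 23 members and 2290 of all genes were called higher. Leaving out the 2 arrays with Car1 farthest from its median, 17 were called higher and Bpgm was called lower, with a slope of -0.16.

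**Figure D3:**
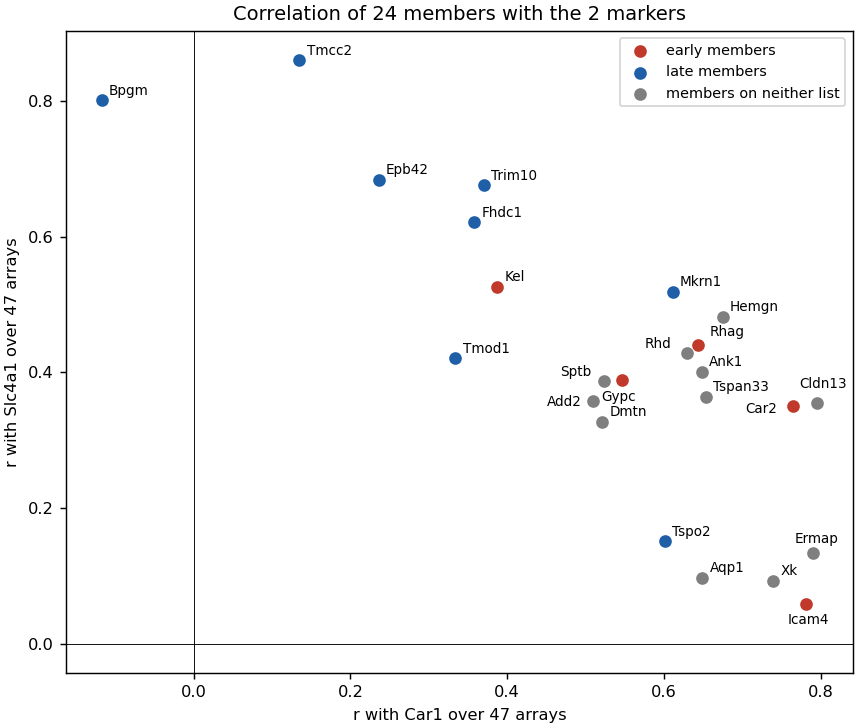
Each point is a member; the horizontal axis is its r with Car1 and the vertical axis its r with Slc4a1 over the 47 arrays, in red for early members, blue for late members and grey for the others. Bpgm (r = -0.12 with Car1, 0.80 with Slc4a1) and Tmcc2 lie at the upper left, and Icam4 (0.78 and 0.06), Xk, Ermap and Aqp1 at the lower right.

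With both markers in one fit, most members followed both. At equal Car1, 19 of 24 members were higher with Slc4a1 (2.64% of all genes), and at equal Slc4a1, 23 of 24 were higher with Car1 (18.6% of all genes), with 0 lower in either. In all arrays together, Hemgn rose by 0.41 (SE 0.05) for each unit of Slc4a1 and by 0.38 (SE 0.03) for each unit of Car1, and Rhag by 0.33 (SE 0.05) and 0.31 (SE 0.04). Cldn13 rose by 0.34 (SE 0.04) and 0.44 (SE 0.03), with adjusted p = 1.48e-07 and 8.00e-15. All 7 skeleton genes in the fit passed for both markers. The member not called with Car1 was Bpgm, with a slope of -0.003 (SE 0.036). Not called with Slc4a1 were Ermap (0.22, SE 0.08, adjusted p = 0.0575), Tspo2 (0.12, SE 0.06), Xk (0.02, SE 0.01), Icam4 (0.10, SE 0.05) and Aqp1 (0.16, SE 0.09). Ermap was called when any 1 of 7 arrays was left out, and Aqp1 without Female 5, where its level was the lowest of all.

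Whether a member leaned to one marker was tested as the difference of its slopes, each per SD of the marker, a test added after the values were seen. The Slc4a1 slope was larger for 3 members (11.7% of all genes) and the Car1 slope for 7 (20.0% of all genes). These shares of 24 members are not far from those of all genes, so leaning to a marker is not particular to the list. Tmcc2 differed by 0.64 (SE 0.09, adjusted p = 3.03e-07), Bpgm by 0.51 (SE 0.07, adjusted p = 9.64e-07) and Epb42 by 0.25 (SE 0.08, adjusted p = 0.0144) towards Slc4a1. Ermap differed by -0.58 (SE 0.11, adjusted p = 6.55e-05), Icam4 by -0.41 (SE 0.08, adjusted p = 4.43e-05), Cldn13 by -0.31 (SE 0.06), Aqp1 by -0.44 (SE 0.13), Car2 by -0.32 (SE 0.08), Tspo2 by -0.22 (SE 0.08) and Xk by -0.06 (SE 0.01). Of those 10, Tspo2 was on the late list and leaned to Car1, a call that was lost when any 1 of 13 of the 47 arrays was left out. The count towards Car1 ran from 6 to 9 when each of the 47 arrays was left out in turn. Kel was on the early list and differed by 0.06 (SE 0.07).

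The bases before the start site are shown for members from both ends of this order, so that the promoters of genes that moved together can be read beside their values. RefSeq promoters on GRCm38.p6 were at hand for 19 of the 26 members; Slc4a1, Gypc, Ank1, Cldn13, Car1, Car2 and Dmtn had no entry. Each sequence runs from position -250 to -1 before the start site, 5′ to 3′ on the strand of the gene. Capitals mark matches of 2 motifs, searched on both strands. AGATAA is a motif of the Gata1 family. The other, CCNCNCCC, is a motif of Klf1 and its relatives. Towards Slc4a1 lay Tmcc2 (chr1:132391387-132391636, minus strand, the first of 3 listed starts), Bpgm (chr6:34476106-34476355, plus strand) and Epb42 (chr2:121036878-121037127, minus strand). Towards Car1 lay Icam4 (chr9:21029182-21029431, plus strand), Ermap (chr4:119189996-119190245, minus strand) and Aqp1 (chr6:55336049-55336298, plus strand).
Tmcc2: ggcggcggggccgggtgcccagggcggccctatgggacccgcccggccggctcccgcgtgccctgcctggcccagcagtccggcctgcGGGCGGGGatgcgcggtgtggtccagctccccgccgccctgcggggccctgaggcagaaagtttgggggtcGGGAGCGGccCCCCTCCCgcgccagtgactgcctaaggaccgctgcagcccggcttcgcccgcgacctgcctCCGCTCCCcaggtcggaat
Bpgm: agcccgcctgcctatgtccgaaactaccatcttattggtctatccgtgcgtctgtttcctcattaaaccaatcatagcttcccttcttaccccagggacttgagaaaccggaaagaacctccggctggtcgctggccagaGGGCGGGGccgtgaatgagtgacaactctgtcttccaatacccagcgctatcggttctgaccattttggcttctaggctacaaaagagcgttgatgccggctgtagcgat
Epb42: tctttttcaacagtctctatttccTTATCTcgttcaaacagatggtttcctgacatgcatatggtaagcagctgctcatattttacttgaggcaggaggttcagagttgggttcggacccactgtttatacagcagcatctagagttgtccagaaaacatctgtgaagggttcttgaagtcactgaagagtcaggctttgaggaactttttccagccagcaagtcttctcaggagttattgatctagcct
Icam4: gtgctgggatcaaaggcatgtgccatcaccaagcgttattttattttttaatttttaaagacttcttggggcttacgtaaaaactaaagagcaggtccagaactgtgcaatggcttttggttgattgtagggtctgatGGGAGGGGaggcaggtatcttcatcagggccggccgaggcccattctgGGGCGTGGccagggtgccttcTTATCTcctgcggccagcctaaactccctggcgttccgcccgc
Ermap: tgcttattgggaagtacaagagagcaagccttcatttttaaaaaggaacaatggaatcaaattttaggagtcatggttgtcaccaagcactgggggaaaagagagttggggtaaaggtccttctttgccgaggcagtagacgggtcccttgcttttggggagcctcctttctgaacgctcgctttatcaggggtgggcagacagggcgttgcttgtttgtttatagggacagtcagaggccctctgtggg
Aqp1: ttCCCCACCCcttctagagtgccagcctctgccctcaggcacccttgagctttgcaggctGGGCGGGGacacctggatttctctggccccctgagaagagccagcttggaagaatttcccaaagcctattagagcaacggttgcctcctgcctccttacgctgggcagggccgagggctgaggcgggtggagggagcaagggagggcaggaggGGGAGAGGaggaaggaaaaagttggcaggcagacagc

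AGATAA lay in the first listed promoter of 5 of the 19 members (26.3%), namely Epb42, Rhd, Kel, Trim10 and Icam4, and in 9.99% of all 32851 promoters of the table. It lay from -56 to -51 in Kel, from -43 to -38 in Rhd and, on the other strand, from -43 to -38 in Icam4. CCNCNCCC lay in 13 of 19 (68.4%), against 45.9% of all promoters, and both motifs in Icam4 alone among the first listed promoters (5.26% against 2.78%). The shares of all promoters count every listed start, and those of members 1 start each. At a later listed start both motifs also lay in Tmcc2 (AGATAA from -33 to -28, on the other strand) and in Fhdc1 (AGATAA from -8 to -3). In Icam4 the CCNCNCCC matches, from -112 to -105 and from -64 to -57, lie upstream of AGATAA. Of the 6 sequences shown, Epb42 at one end and Icam4 at the other held AGATAA, and Ermap held neither motif as spelled here. Other spellings of the motifs were not searched, so a window without a match may hold one of them. A match is a match of letters, and these windows do not show whether a factor binds there.

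The relation to both markers depended on the set of arrays. In the 25 lymphoid-low arrays 4 of 25 members were called higher with Slc4a1 (0.427% of all genes, with 0.183% lower): Tmcc2 (0.90, adjusted p = 9.67e-07), Fhdc1 (0.26), Ank1 (0.15) and Epb42 (0.38). That count was 10 without Female 18, 9 without Female 24, 8 without Female 20 and 2 without Male 20. With Car1, 1 member was called there, Cldn13 (0.36, adjusted p = 0.0474; 0.0665% of all genes higher and 0.41% lower). Without Female 20, whose Car1 level was the lowest of that set, r of Cldn13 with Car1 went from 0.66 to 0.27 and 0 members were called. In the 22 lymphoid-high arrays 21 members were called higher with Slc4a1 (1.32% of all genes, 1.25% lower) and 18 with Car1 (3.9% of all genes, 1.3% lower). Leaving out 1 array of that set gave 19 to 22 and 12 to 19, the 12 being without Male 16. Those not called with Slc4a1 were Car1, Xk, Tspo2 and Icam4.

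With both markers in the fit, 10 of 24 members were called higher with Slc4a1 in the lymphoid-low arrays (0.421% of all genes higher, 0.0997% lower) and 1, Cldn13, with Car1 (0.0831% higher, 0.438% lower). The first count was 4 without Male 20, and the second 2 without Female 18. In the lymphoid-high arrays 19 were called with Slc4a1 (0.93% higher, 2.32% lower) and 12 with Car1 (4.82% higher, 0.735% lower). The slope difference was called in the lymphoid-low set for Tmcc2, towards Slc4a1 (0.321% of all genes, 0.15% towards Car1), and for 6 members without Female 20 and 2 without Female 18. In the lymphoid-high set it was called for Bpgm, towards Slc4a1 (0.256% of all genes, 3.53% towards Car1), for 3 members without Female 11, and for 1 member towards Car1 without Male 6 or without Female 9. So 0 of the 7 members that leaned to Car1 over all arrays did so inside either set with all its arrays.

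Tmcc2 kept r with Slc4a1 at 0.90 in the lymphoid-low and 0.89 in the lymphoid-high arrays. Epb42 had 0.68 and 0.86, Trim10 0.65 and 0.87, and Bpgm 0.64 and 0.89. Among the 7 members that leaned to Car1 the gap between the sets varied: Ermap had r with Slc4a1 of 0.06 and 0.77, Aqp1 -0.19 and 0.74, Icam4 0.12 and 0.54, Cldn13 0.37 and 0.76, Tspo2 0.30 and 0.58, Car2 0.65 and 0.84, and Xk 0.49 and 0.43. With Car1, Ermap had 0.15 and 0.79, Icam4 0.23 and 0.80, and Aqp1 0.28 and 0.82. Without Female 20 the lymphoid-low values were 0.36 for Ermap, 0.26 for Icam4 and 0.38 for Aqp1. Ermap lay between 8.77 and 9.86 on all lymphoid-low arrays and between 5.59 and 9.76 on the others, so its range was much narrower in the first set. Car2 likewise lay between 10.24 and 11.95 in the first and between 7.64 and 11.90 in the second. The difference of the correlations between the sets was not tested, since the sets were chosen from these data.

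**Figure D4:**
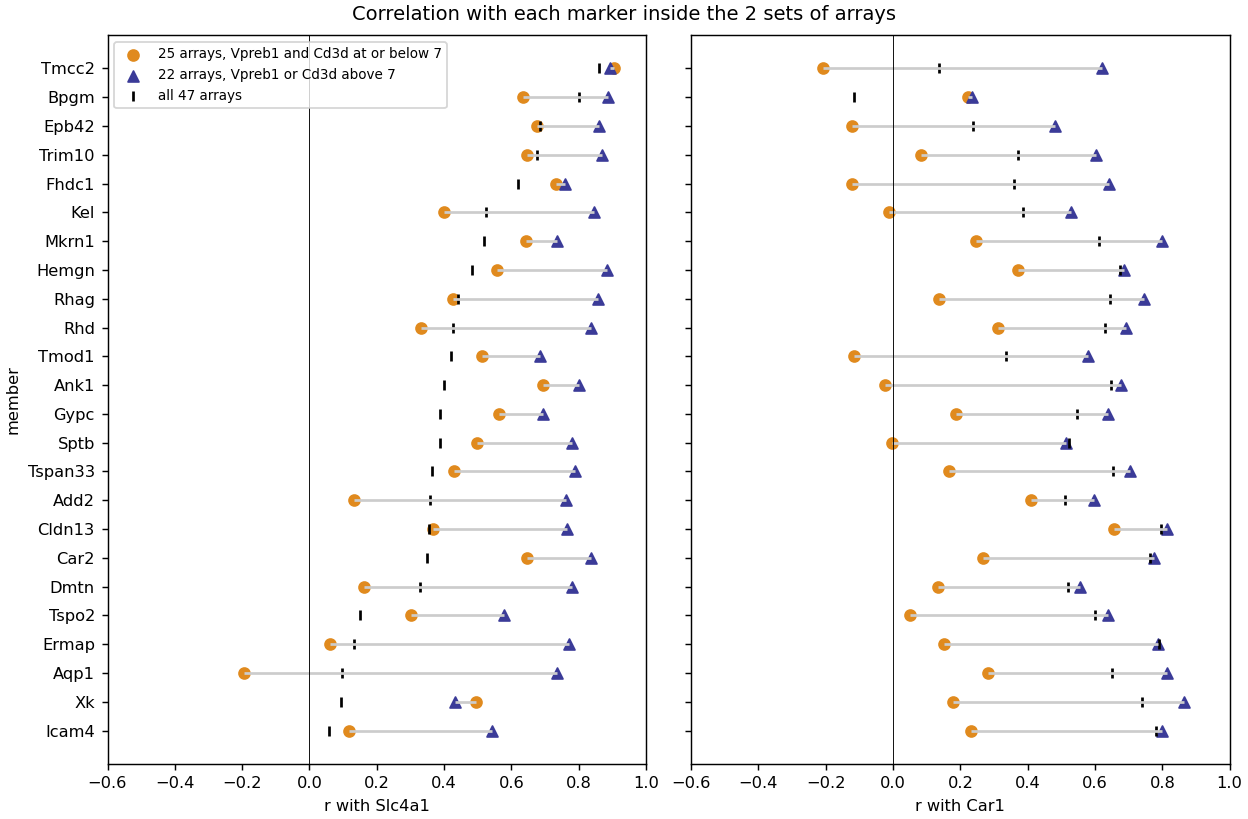
For each member (rows), the points give r with Slc4a1 (left) and with Car1 (right) in the 25 arrays with low Vpreb1 and Cd3d (circles), in the other 22 (triangles) and in all 47 (bars). Triangles lie to the right of circles for every member with Car1 and for all but Tmcc2 and Xk with Slc4a1, and Tmcc2 has r near 0.9 with Slc4a1 in both sets.

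Between themselves the 26 members formed 325 pairs with a median r of 0.68 and a median rho of 0.65. An r above 0.5 was found for 268 pairs (82.5%), against 2.54% of all pairs of tested genes, whose median r was 0.008; 3 member pairs were below 0. Pairs share arrays and the amount of erythroid RNA in each spleen, so these r are a description. Highest were Hemgn with Tspan33 (0.93), Ermap with Car2 (0.92), Rhd with Tspan33 (0.91) and Hemgn with Cldn13 (0.91). Lowest were Slc4a1 with Car1 (-0.14), Bpgm with Car1 (-0.12), Bpgm with Xk (-0.03) and Bpgm with Icam4 (0.006). The median was 0.70 among early members, 0.68 among late members and 0.61 between early and late ones. It was 0.43 over all pairs in the lymphoid-low arrays, where 118 pairs passed 0.5, and 0.86 in the lymphoid-high arrays, where 318 did. Among early members it was 0.27 in the lymphoid-low set and 0.80 in the lymphoid-high set, and among late members 0.65 and 0.84. In line 6070 alone the median was 0.69, and in line 6113 alone 0.69.

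Taking the mean of the late members minus that of the early members, each gene centred on its mean, gave 1 value an array that ran from -1.10 to 0.84 (SD 0.56). Female 3 and Male 5 were lowest, at -1.10 each, and Male 10 and Female 15 were highest, at 0.84 and 0.82. The lymphoid-low arrays had a median of -0.32 (-1.10 to 0.64) and the lymphoid-high arrays 0.50 (-0.60 to 0.84), so the ranges overlapped. The early and late means had r = 0.62 over all arrays, 0.55 in the lymphoid-low and 0.90 in the lymphoid-high set. Car1 widened the difference: without it the SD was 0.40, though the values without it had r = 0.97 with those that included it. Without Car1 the early and late means had r = 0.76 over all arrays, 0.81 in the lymphoid-low and 0.955 in the lymphoid-high set. Genes of other cells moved along: the mean of 6 monocyte and macrophage genes (7.10 to 9.44 over the arrays, median 7.81) had r = 0.77 with late minus early and -0.72 with Car1, and all 6 were called lower with higher Car1. The mean of 5 B cell precursor genes (5.17 to 8.75) had 0.63 and -0.57, and all 5 were called lower. Over all genes 13.6% were called lower with Car1. Also called lower were 3 of 5 T cell, 3 of 7 neutrophil and 3 of 5 stem and progenitor genes. Of the stem and progenitor genes, 1 was called higher. The 5 megakaryocyte and platelet genes and the 6 endothelium and stroma genes each had 1 lower and 1 higher. Of 5 proliferation genes, 1 was called higher and 0 lower. Of 7 neutrophil genes, 5 were called higher with Slc4a1 (2.21% of all genes), and the mean (5.35 to 9.64) had r = 0.46 with it. A level above log2 7 on at least 1 array was reached by 5 of the 6 monocyte and macrophage genes (not Cd68), 4 of 5 B cell precursor genes (not Cd79a), 4 of 5 T cell genes (not Cd3e) and 6 of 7 neutrophil genes (not Elane). Of 5 stem and progenitor genes 2 reached it, and of 6 endothelium and stroma genes 1. The part of these cells in the early and late difference was not tested. The difference between 3′ and 5′ control probe sets, a sign of RNA quality, had r = 0.25 with Slc4a1, 0.11 with Car1 and -0.006 with late minus early. Its r with Slc4a1 was 0.52 in the lymphoid-high and 0.11 in the lymphoid-low arrays. The part of RNA quality in the correlations with Slc4a1 was not tested.

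A few arrays were low in 1 or several red cell genes, while the median member was near or above its median level. On the array labelled Female 20, Car1 was 6.49, which is 3.82 below its median, while Car2 was 11.08, Ermap 9.51 and Slc4a1 9.08, each near its median. Cldn13 was low there too, at 6.49 against a median of 8.00. Bpgm (6.13), Mkrn1 (7.83) and Hemgn (8.71) also lay below their medians of 7.17, 8.62 and 9.43. On Female 3, Slc4a1 was 5.81 with Car1 at 11.25 and Ermap at 9.29. Tmcc2 was also at its lowest there (5.36), and Gypc and Tmod1 too (6.11 and 5.86), whereas Aqp1 was high (9.54). A second Slc4a1 probe set, which had r = 0.99 with the one used, was also at its lowest on Female 3 (5.43 against a median of 8.95), and a second Tmcc2 probe set was second lowest (5.52). On Female 5, Aqp1 was 6.03, the lowest of 47, while Hemgn was 10.24 and Slc4a1 10.24, both above their medians. Car1 and Aqp1 each have 1 single-gene probe set, so no other probe set bears on them. Without Female 5, r of Aqp1 with Hemgn went from 0.73 to 0.88, and without Female 20, r of Car1 with Ermap from 0.79 to 0.87. Car1 also stood over 2 log2 units below the other members, relative to their medians, on Male 10, Male 16, Female 15, Male 6 and Female 23, all lymphoid-high arrays. These arrays were singled out after their values were seen.

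**Figure D5:**
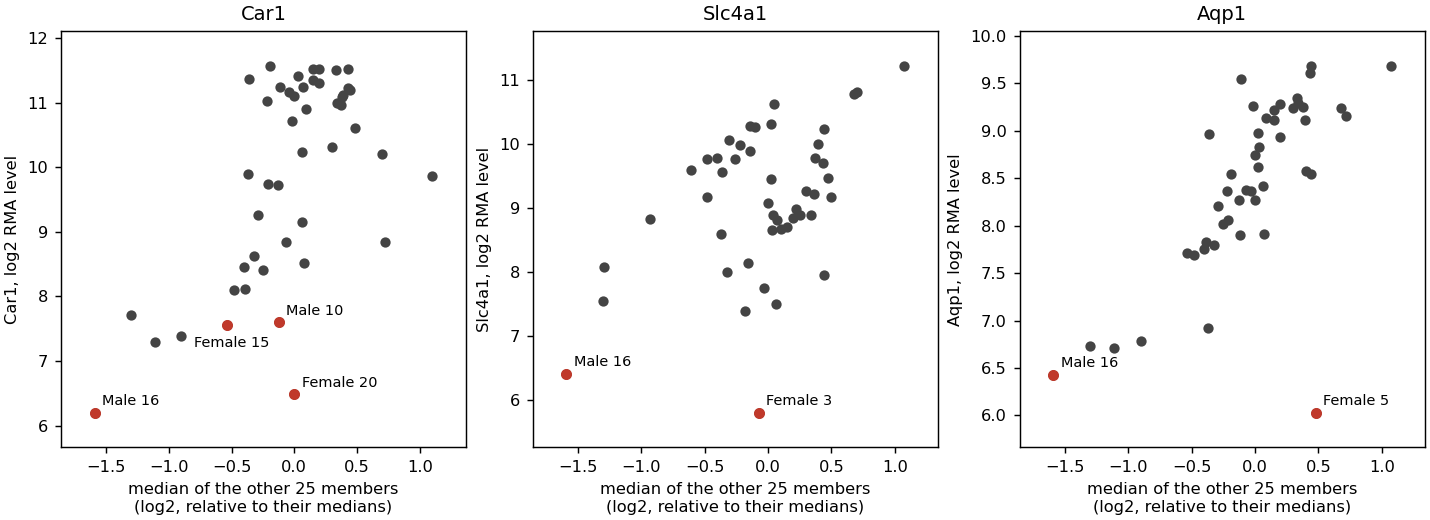
Each panel plots 1 gene's log2 RMA level (vertical) on each of the 47 arrays against the median of the other 25 members on that array, relative to their own medians (horizontal); red points carry the labels of arrays that stand low. Car1 on Female 20 (6.49), Slc4a1 on Female 3 (5.81) and Aqp1 on Female 5 (6.03) lie far below arrays with a like median.

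No member was called for any label. With the pairing of arrays and labels in doubt, these fits cannot decide whether members differ by label. Sex labels matched the sex-chromosome transcripts on 23 of 47 arrays, and no gene was called with them, sex-chromosome transcripts included. With the Erg insertion label, 0 of 26 members and 0.0% of all genes were called (limma, with line and sex labels as covariates), and 0 members and 666 genes had an unadjusted p under 0.05. Slc4a1 was 9.04 ± 0.93 (SD, n = 26) with the label and 9.22 ± 1.33 (SD, n = 21) without it, a fitted difference of -0.24 (SE 0.34). Car1 was 9.82 ± 1.71 (SD, n = 26) and 9.95 ± 1.41 (SD, n = 21), a difference of -0.18 (SE 0.48). Both groups spanned nearly the whole range: Slc4a1 ran from 6.42 to 10.78 with the label and from 5.81 to 11.22 without. The median difference over members was -0.08, against 0.002 for all genes, and 6 of 26 were positive (52.6% of all genes). That median was 0.05 in line 6113 alone and -0.16 in line 6070 alone. The age label had a median of 74 (49 to 97) with the Erg label and 54 (32 to 89) without it, so these labels were partly tied. The Erg label was on 17 of 26 arrays of line 6070 and on 9 of 21 of line 6113. With the age label as a further covariate the median Erg difference over members was -0.19, with 3 of 26 positive (56.4% of all genes) and 0 members called. Between the lines, 0 of 26 members and 0.0% of all genes were called. The median difference over members, line 6113 minus line 6070, was -0.13 and 1 of 26 was positive (45.4% of all genes). An unadjusted p under 0.05 was found for 0 members and 540 genes. Members moved together, so these counts of positive members are not counts of separate observations. Tumour identifier numbers 7 and 8 occurred only in line 6070, on 11 and 3 arrays. Number 9 was on 12 arrays of line 6070 and on all 21 of line 6113. With the sex label 0 members and 0.0% of genes were called, and 0 members and 460 genes had an unadjusted p under 0.05. With the age label 0 members and 0.0% of genes were called, and 688 genes and 2 members had an unadjusted p under 0.05: Tmcc2 (0.02 log2 for each unit of age, p = 0.0377) and Fhdc1 (0.009, p = 0.0499), neither past the correction with an adjusted p of 1.0.

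Other red cell genes were followed for comparison. Of 22 further membrane genes on the array, 3 were called higher with Slc4a1 and 0 lower (2.21% and 6.01% of all genes): Atp2b4, a calcium pump (0.05), Cd24a (0.22) and Mpp1, a membrane scaffold (0.16). With Car1 12 were called higher and 2 lower (18.9% and 13.6% of all genes), among them Slc14a1, the urea transporter (0.36), Stom, stomatin (0.28) and Smim1, the Vel blood group protein (0.15), and, lower, Slc2a1, the glucose transporter (-0.21). Atp2b4, Smim1 and Slc2a1 were among the 7 of these 22 genes that lay above log2 7 on no array, so their slopes come from low values. Of 22 erythroid regulators and maturation genes, 9 were called higher with Slc4a1 and 0 lower. They included Slc25a37, the mitochondrial iron importer (0.73, SE 0.04, adjusted p = 3.85e-19), Xpo7, an exportin of erythroblast maturation (0.64), Tfrc, the transferrin receptor (0.39), and Fech, the last enzyme of haem synthesis (0.52). With Car1 13 were called higher and 1 lower, led by the transcription factors Tal1 (0.42) and Gfi1b (0.27), the cofactor Zfpm1 (0.29) and the erythropoietin receptor gene Epor (0.17). The difference between the lists was not tested.

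Ranked by their test statistic, the genes outside the list most like Slc4a1 were Slc25a37, Xpo7, Hbb-b2, Tent5c, Tfrc, 5430401H09Rik, Fech and Alas2, the last being the erythroid enzyme that starts haem synthesis. Alas2 had a slope of 0.62 (SE 0.07) and the beta-globin gene Hbb-b2 of 0.55 (SE 0.05). The most negative were Echs1 (-0.14), Nthl1 (-0.06), Etv6 (-0.19) and Mdh2 (-0.13). The genes outside the list most like Car1 were Cyth3 (0.39), Sun1 (0.21), Macrod2 (0.20), Acsl5 (0.40), Bloc1s5 (0.20), Minpp1 (0.45), Septin8 (0.54) and Smim5 (0.44), and the most negative Slc38a1 (-0.49), B4galt5 (-0.13), Vim (-0.49) and Panx1 (-0.20). Members took 4 of the top 50 places for Slc4a1 and 0 of the top 50 for Car1.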

How the data were processed

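The deposited values are log2 levels that the authors made with RMA (affy, R 2.15), as the submitters' processing notes and the labels state, from 1 Affymetrix mouse genome array per spleen; per the labels, RNA was purified on columns and labelled by 3′ in vitro transcription. Scanner files were not used here, and each of the 47 columns had a sample (0 without). The platform annotation named the probe sets: 34945 with 1 gene were used, 932 with several and 9160 unnamed were not.

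Fits used limma 3.58.1 (lmFit, eBayes) in R 4.3.3 over all tested genes, Benjamini-Hochberg adjusted, threshold 0.05. Each gene was fitted on the log2 level of Slc4a1, of Car1 or of both, or on the labels. The Erg, line and sex fits held the other 2 of these labels as covariates, and the age fit all 3. Fits were tested on simulated data. Correlations, counts and two-sided permutation p-values (100000 resamples) were computed in Python with numpy 2.4.6. Promoters came from RefSeq (GRCm38.p6). The members, the lists and the early and late order were chosen with earlier results of these data known. Non-members were named by rule: the 8 most positive and 4 most negative t in each marker fit, and up to 4 genes with the smallest p past the threshold in each list. Each array is a separate mouse, and their number limits the precision. Alternatives covered covariates, filters, probe sets, ranks, lines and left-out arrays.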

Additional observations from a re-analysis of the deposited data

How the results depend on the processing

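Apart from the summary counts, 518 values kept direction and call, 122 kept direction and lost the call, 11 reversed and 1 moved. Most were values of single genes. The 1 that moved was the correlation of the early and late means in the lymphoid-high arrays. That correlation in other settings was counted here too. So were the Erg differences of Slc4a1 and Car1, which had no call to lose. The cause of these changes was not tested. Of 25 members, the count called higher with Slc4a1 (11) was 4 in line 6070, 5 in line 6113, 4 in the lymphoid-low arrays and 21 in the lymphoid-high arrays, with a range of 7 (without Male 16) to 14 (without Female 3 or Female 18) when 1 array was left out. The count with Car1 (20) was 1 in the lymphoid-low arrays, and without the 2 farthest arrays 1 member was called lower. At equal Car1 the count with Slc4a1 (19) was 10 in the lymphoid-low arrays; at equal Slc4a1 the count with Car1 (23) was 1 there and 12 in the lymphoid-high arrays. The slope difference (3 towards Slc4a1, 7 towards Car1) gave 1 and 0 in the lymphoid-low and 1 and 0 in the lymphoid-high arrays. The median r between members was 0.426 in the lymphoid-low arrays, and the SD of late minus early 0.325 in the lymphoid-high arrays.

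Reversed values were the Erg difference of Slc4a1 on arrays whose sex label matches (0.316) and of Car1 in line 6113 (0.405). In the lymphoid-low arrays they were the Car1 slopes of Ank1 (-0.005), Fhdc1 (-0.043) and Kel (-0.005), the slopes at equal Slc4a1 of Tmcc2 (-0.011) and Tmod1 (-0.002), and the slope differences of Car2 (0.111), Tspo2 (0.094) and Xk (0.022). In the lymphoid-high arrays it was the slope difference of Car2 (0.106).

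Over all genes, 401 were called higher and 1093 lower with Slc4a1. These counts were 285 and 256 in line 6070, 81 and 114 in line 6113, 712 and 1888 without the 2 farthest arrays, 722 and 1845 on ranks, 77 and 33 in the lymphoid-low and 237 and 224 in the lymphoid-high arrays. With Car1 they were 3441 and 2463 of 18177 genes, against 1529 and 1181 in line 6070 and 1979 and 1587 in line 6113. They were 12 and 74 in the lymphoid-low and 700 and 234 in the lymphoid-high arrays. With only genes above log2 6 in 9 arrays they were 2290 and 1292 of 6303 genes, a larger share in both directions. No paired analysis was possible because the numbers in the sample names only name mice, 1 array each, and pair none across groups. Values near the floor, as for Xk and Sptb, limit what can be seen of those genes.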
